A study of Mus musculus with 4 samples.

Results

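Cd209a-expressing cDC2-like cells were a set of dendritic-like cells from mouse B16-F10 melanomas, chosen by their UMI counts (unique molecular identifiers, each standing for a captured RNA molecule). A barcode was a member when it had at least 500 detected genes, at most 10% mitochondrial UMIs, at least 2 UMIs of Cd209a, at most 1 UMI of Xcr1 and Clec9a together, at most 2 UMIs of Ccr7 and at most 2 of Siglech. Per 10000 UMIs of the barcode it also had under 5 UMIs of the complement genes C1qa, C1qb and C1qc together, under 10 of Retnla and under 10 of Ly6c2. This rule took 2624 of 26882 barcodes that passed the gene and mitochondrial filters. The levels of the genes in the rule are therefore descriptions of the choice and not results.

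The cells came from C57BL/6 mice that carried B16-F10 tumors, a melanoma line of the same strain, grown under the skin from 500000 inoculated cells. On day 12 a tumor was injected with 1 of 4 adenoviruses. Ad-MEM40 is labelled ISF35, which encodes a chimeric CD40 ligand, Ad-mIFNB carries mouse interferon beta, Ad-COMBO is the ISF35 and mIFNB viruses together, and Ad-Null is the control virus without either gene. CD11c+ MHC-II+ cells of 3 tumors were pooled before loading, and each treatment had 1 library, so all comparisons below lack replicates and carry no test. A difference between treatments and a difference between libraries cannot be told apart. All groups share the sort gate, the tumor line, the strain and an adenovirus injection, and a mouse or tumor cannot be told from another within a library. Animal ages are not given in the labels.

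Conventional type 2 dendritic cells (cDC2) take up antigen and present it on MHC class II to CD4 T cells, and in mouse tumors they lie close in expression to cells that arise from monocytes. Cd209a encodes a mouse relative of the C-type lectin DC-SIGN and is known from cDC2 and from monocyte-derived dendritic cells. Type I interferon signals through IFNAR1 and IFNAR2 to a transcription factor complex that binds interferon-stimulated response elements in the promoters of antiviral genes, while CD40 signals through TRAF adaptors to NF-kB.

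The members numbered 1163 in Ad-MEM40, 108 in Ad-mIFNB, 11 in Ad-COMBO and 1342 in Ad-Null. They made up 7.43% (7.02 to 7.85) of the 15656 filtered barcodes of Ad-MEM40, 5.97% (4.92 to 7.16) of 1810 in Ad-mIFNB, 1.64% (0.821 to 2.91) of 671 in Ad-COMBO and 15.3% (14.6 to 16.1) of 8745 in Ad-Null, with exact binomial 95% intervals. The share was lower in each virus library than in Ad-Null, and the 4 intervals of Ad-MEM40, Ad-mIFNB, Ad-COMBO and Ad-Null overlapped only between Ad-MEM40 and Ad-mIFNB. All intervals here cover counting error only, since UMIs of 1 cell and cells of 1 tumor are not independent samples. These are shares of sorted cells and not numbers of cells per tumor.

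**Figure D1:**
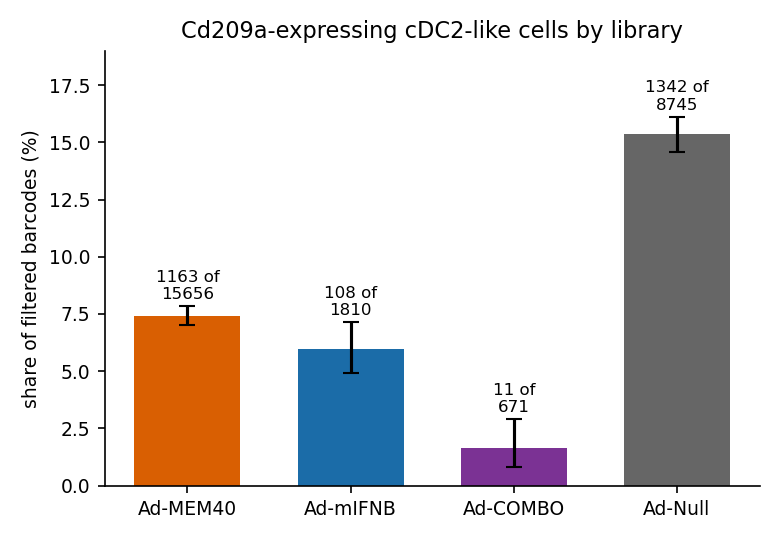
Share of filtered barcodes that met the rule, in percent, for each library, with exact binomial 95% intervals. Ad-MEM40 is at 7.43%, Ad-mIFNB at 5.97%, Ad-COMBO at 1.64% and Ad-Null at 15.3%.

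Depth bears on these shares, because 2 UMIs of Cd209a are more easily reached in a deep cell. The median UMI count of a member was 9615 in Ad-MEM40, 16577.5 in Ad-mIFNB, 21091 in Ad-COMBO and 15278.5 in Ad-Null, and that of all filtered barcodes was 9483, 13615.5, 11434 and 15277 in the same order of libraries. With every barcode thinned to 3000 UMIs before the rule, the shares were 4.59%, 2.93%, 1.23% and 9.47% in Ad-MEM40, Ad-mIFNB, Ad-COMBO and Ad-Null, so Ad-Null kept the highest share at equal depth. With no UMI at all of C1q genes or Retnla allowed, they were 2.38%, 4.97%, 1.49% and 4.79%, and Ad-mIFNB then lay level with Ad-Null. Members had a median of 2688 detected genes in Ad-MEM40, 3530.5 in Ad-mIFNB, 4035 in Ad-COMBO and 3386 in Ad-Null. No member barcode was shared between libraries. Scrublet, which scores barcodes by their likeness to simulated cell pairs, marked 46 members of Ad-MEM40 (3.96%), 0 of Ad-mIFNB, 0 of Ad-COMBO and 81 of Ad-Null (6.04%) as doublets, and they were kept because the rule has no such step. Of all filtered barcodes it marked 14.55% in Ad-MEM40, 0.166% in Ad-mIFNB, 0.447% in Ad-COMBO and 16.7% in Ad-Null. Only 3 barcodes were marked in each of Ad-mIFNB and Ad-COMBO, so 0 marked members there does not show a lack of doublets. The thresholds differed, so these shares cannot be compared between libraries.

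At the edge of the rule, barcodes with 2 UMIs of Cd209a are set beside those with 1 UMI that met every other condition. Clec10a was at 339 CPM (UMIs per 1000000 UMIs summed over the cells) in the 217 barcodes with 2 UMIs and 241 CPM in the 420 with 1 UMI in Ad-MEM40. The same values were 223 and 210 CPM in Ad-mIFNB (20 and 45 barcodes), and 344 and 189 CPM in Ad-Null (173 and 330 barcodes). The monocyte and macrophage gene Lyz2 was at 707 CPM just inside and 721 just outside in Ad-MEM40, 33.6 and 46.9 in Ad-mIFNB, and 465 and 605 in Ad-Null. Mgl2 was at 306 CPM just inside and 239 just outside in Ad-MEM40, 523 and 180 in Ad-mIFNB, and 379 and 265 in Ad-Null. H2-Aa was at 7249 and 6357 CPM in Ad-MEM40, 8115 and 8653 in Ad-mIFNB, and 7119 and 5402 in Ad-Null. In Ad-mIFNB, Il1r2 (449 and 513 CPM), H2-Oa (91.7 and 126) and Ltb (79.5 and 103) were also lower just inside. Klrd1 was higher there (468 and 418 CPM). Clec10a in Ad-Null and Mgl2 in Ad-mIFNB thus differed by more than 1.5-fold across the edge. Barcodes that failed on Cd209a alone numbered 3970 in Ad-MEM40, 536 in Ad-mIFNB, 180 in Ad-COMBO and 2126 in Ad-Null.

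The 6 genes given as markers of these cells were all higher in the members than in the other filtered barcodes, in all 4 libraries. For Cd209a the rule fixes this. Clec10a, a galactose-binding C-type lectin, was at 506 CPM in Ad-MEM40, 451 in Ad-mIFNB, 442 in Ad-COMBO and 489.8 in Ad-Null, where the other barcodes had 93.7, 83.9, 48.6 and 115 CPM. Klrd1, known as CD94 on natural killer cells, was at 363 CPM in Ad-MEM40, 473 in Ad-mIFNB, 336 in Ad-COMBO and 399.9 in Ad-Null, against 86.9, 160.3, 90.6 and 117 CPM in the other barcodes. The decoy interleukin 1 receptor Il1r2 was at 321 CPM in Ad-MEM40, 414 in Ad-mIFNB, 655 in Ad-COMBO and 329.6 in Ad-Null, against 119, 203, 152 and 147 CPM. Ltb, the membrane anchor of lymphotoxin, was least marked in Ad-mIFNB, at 77.8 against 67.7 CPM in other barcodes. It was at 32.9, 77.8, 149 and 40.9 CPM in the members of Ad-MEM40, Ad-mIFNB, Ad-COMBO and Ad-Null. Barcodes with 0 UMIs of Cd209a that met every other condition had 29.0, 125, 147 and 43.8 CPM. Ltb thus did not set the members apart from them. Clec10a, Klrd1, Il1r2 and H2-Oa were higher in the members than in those barcodes in all 4 libraries. The smallest gap was Il1r2 in Ad-mIFNB (414 against 395 CPM). H2-Oa, which tempers peptide loading on MHC class II, was at 94.8, 129, 332 and 103 CPM in the members of Ad-MEM40, Ad-mIFNB, Ad-COMBO and Ad-Null, against 43.3, 65.9, 65.8 and 56.4 CPM. Cd209a itself, which chose the members, was at 692 CPM in Ad-MEM40, 638 in Ad-mIFNB, 425 in Ad-COMBO and 723 in Ad-Null (gene at chr8:3743397-3748984, minus strand in GRCm38).

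Other lineage genes bore on the name as well, some toward it and some away from it. Irf4, a transcription factor that cDC2 depend on, was at 38.8, 46.2, 34.0 and 36.5 CPM in the members of Ad-MEM40, Ad-mIFNB, Ad-COMBO and Ad-Null, against 14.5, 17.8, 18.9 and 18.0 CPM in other barcodes. Irf8, which cDC1 depend on, ran the other way, at 122, 83.0, 166 and 113 CPM in members against 628, 685, 907 and 680.0 CPM. The dendritic cell receptor Flt3 was not higher in the members, at 40.8, 28.0, 8.51 and 33.8 CPM against 43.3, 52.5, 80.3 and 52.2 CPM. The dendritic cell factor Zbtb46 was at 31.9, 33.7, 21.3 and 30.2 CPM in members, against 20.9, 31.2, 40.4 and 22.8 CPM.

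Monocyte genes were present in the members throughout. Their summed level was above that of the other sorted barcodes in all 4 libraries, but only slightly in Ad-MEM40. Summed over 17 monocyte list genes they reached 5949, 5886, 4819 and 5286 CPM in the members of Ad-MEM40, Ad-mIFNB, Ad-COMBO and Ad-Null, against 5898, 5550.0, 3845 and 4733 CPM in all other filtered barcodes. Barcodes with at least 3 UMIs of Xcr1 and Clec9a together and at most 1 of Cd209a (cDC1 barcodes) had 2029, 2641, 1648 and 1831 CPM. Barcodes with at least 10 UMIs of Ly6c2 per 10000 (Ly6c2 barcodes) had 9452, 8998, 10241 and 8495 CPM. S100a4, Plac8 and Ms4a4c made up most of the members' sum in every library. Lyz2 of the same list ran the other way. It was at 596, 85.1, 46.8 and 329 CPM in the members of Ad-MEM40, Ad-mIFNB, Ad-COMBO and Ad-Null, against 2728, 954, 769 and 1714 CPM in other barcodes. Of the 17 genes 0, 3, 10 and 0 were at 0 UMIs in the members of Ad-MEM40, Ad-mIFNB, Ad-COMBO and Ad-Null. Macrophage genes were low, at 651, 311, 362 and 584 CPM over 13 genes, where barcodes with at least 20 UMIs of C1q genes per 10000 (C1q barcodes) had 6592, 5409, 7863 and 5733 CPM. The cells thus held the 6 marker genes beside monocyte genes, and cDC2 and monocyte-derived cells of this set cannot be told apart by the rule.

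**Figure D2:**
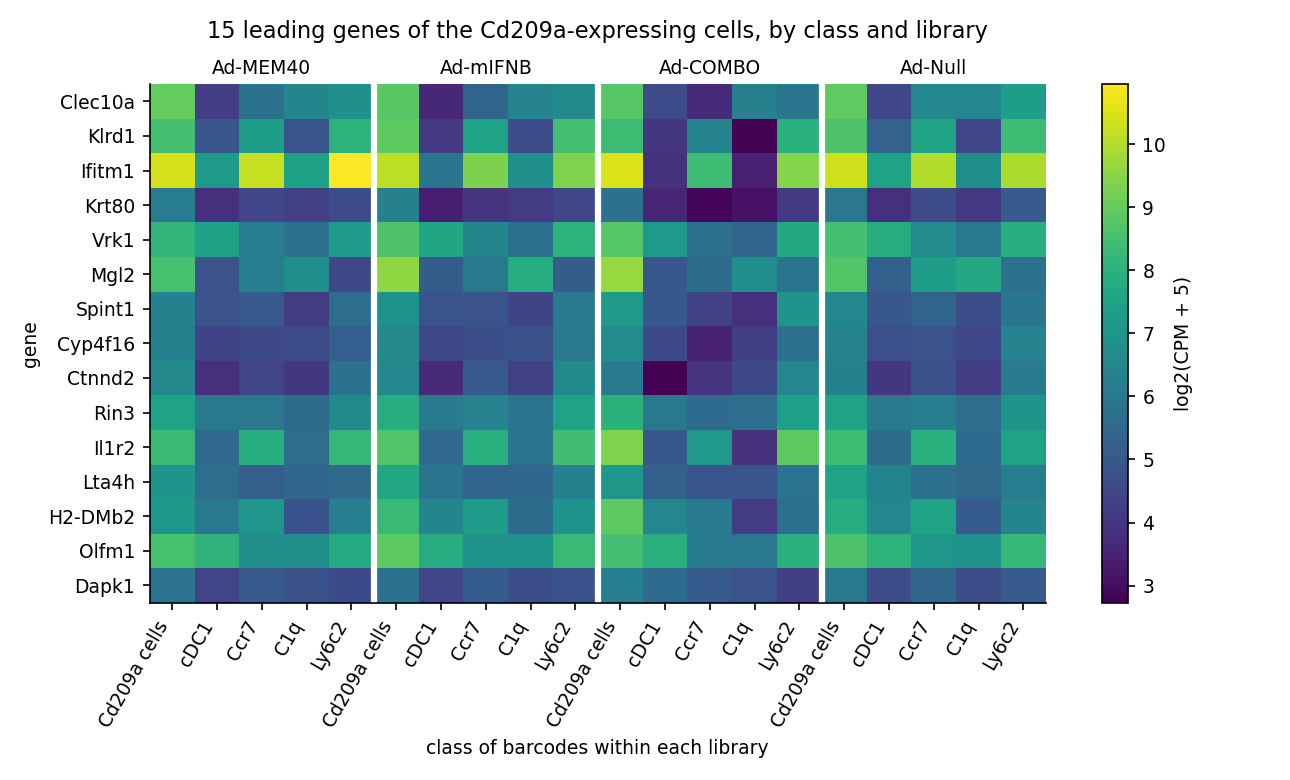
Heat map of log2(CPM + 5), in color, for the 15 genes that lead the members (down) in the members and in 4 other classes of barcodes of each library (across). The members' column is brighter than the cDC1, Ccr7 and C1q columns for all 15 genes in each library, and Ly6c2 barcodes are brighter for Ifitm1 in Ad-MEM40.

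A group of 15 genes led the members over all other filtered barcodes in every library, ranked by their smallest ratio among the 4 libraries. They were Clec10a, Klrd1, Ifitm1 (an interferon-induced membrane protein), Krt80 (a keratin), Vrk1 (a chromatin kinase), Mgl2 (a C-type lectin related to Clec10a), Spint1 (a protease inhibitor), Cyp4f16 (a cytochrome P450), Ctnnd2 (a catenin), Rin3 (a RAB5 regulator), Il1r2, Lta4h (which makes leukotriene B4), H2-DMb2 (a peptide editor of MHC class II), Olfm1 and Dapk1 (a death-associated kinase). All 15 were higher in the members than in cDC1 barcodes, in barcodes with at least 3 UMIs of Ccr7 (Ccr7 barcodes) and in C1q barcodes, in each of the 4 libraries. Against Ly6c2 barcodes 14, 14, 14 and 15 of 15 were higher in Ad-MEM40, Ad-mIFNB, Ad-COMBO and Ad-Null. The exceptions were Ifitm1 in Ad-MEM40 and Ctnnd2 in Ad-mIFNB and Ad-COMBO. The median log2 ratio over the 15 genes to Ly6c2 barcodes was 0.86, 0.78, 1.02 and 0.64, against 1.95, 2.07, 2.19 and 1.69 to cDC1 barcodes. This ratio and those below had 5 CPM added to both sides, and the choice of the 15 genes fixes their direction against all other barcodes together.

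The members were not uniform, and a split by Mgl2 separated several groups of genes. At least 3 UMIs of Mgl2 were found in 290 members of Ad-MEM40 (24.9%), 38 of Ad-mIFNB (35.2%), 7 of Ad-COMBO (63.6%) and 434 of Ad-Null (32.3%), and none in 754, 63, 4 and 712. In cDC1 barcodes, which should lack the gene, the shares at 3 UMIs were 2.19%, 2.63%, 7.89% and 4.50%. The median depth of cDC1 barcodes was 13276, 20492, 22412 and 21648 UMIs, against 9615, 16577.5, 21091 and 15278.5 in the members. With members thinned to 3000 UMIs, which left 1141, 108, 11 and 1328, the shares were 14.5%, 20.4%, 27.3% and 14.8%. Members with at least 3 UMIs were deeper, at medians of 11892, 21800, 22459 and 18138 UMIs, than members with none, at 8922, 15511, 17312 and 13956 UMIs. The split was chosen after values were seen and is a description.

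The genes highest in Mgl2-positive over Mgl2-negative members, chosen by that ratio in Ad-MEM40, Ad-mIFNB and Ad-Null, were of mixed function. Ccl17, which attracts T cells through CCR4, was at 125 against 11.0 CPM in Ad-MEM40, 287 against 14.6 CPM in Ad-mIFNB and 276 against 22.5 CPM in Ad-Null. The neutrophil chemokine Cxcl2 was at 1470.3 against 438 CPM in Ad-MEM40, 464 against 63.5 CPM in Ad-mIFNB and 1180.3 against 215 CPM in Ad-Null. Ccl17 and Cxcl2 were thus several times higher in the positive members of each of these 3 libraries. The mannose receptor Mrc1 was at 236 against 62.2 CPM in Ad-MEM40, 80.0 against 11.4 CPM in Ad-mIFNB and 197 against 49.3 CPM in Ad-Null. The Fc receptor Fcgr3 was at 109.9 against 30.3 CPM in Ad-MEM40, 108 against 17.7 CPM in Ad-mIFNB and 129 against 36.2 CPM in Ad-Null. Ear2, Pilra, Dok2, Gda, Clec4n, Capg, Cd200r1 and Ccl6 completed the 12 genes ranked by their smallest ratio among the 3 libraries.

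The genes lowest in Mgl2-positive over Mgl2-negative members were chosen in the same way. Cd7, an immunoglobulin superfamily receptor known from T cells, was at 46.1 against 149 CPM in Ad-MEM40, 15.8 against 90.6 CPM in Ad-mIFNB and 39.3 against 108 CPM in Ad-Null. The RNA exonuclease Isg20 was at 54.7 against 95.6 CPM in Ad-MEM40, 121 against 414 CPM in Ad-mIFNB and 59.9 against 106 CPM in Ad-Null. Plac8, high in monocytes, was at 965 against 1637 CPM in Ad-MEM40, 890.1 against 1992 CPM in Ad-mIFNB and 863 against 1329.5 CPM in Ad-Null. Flt3, Ms4a6b, Tgtp2, Calhm6, Ifit2, Ifitm6, Ifi203 and Tsc22d3 were lower in the positive members of these 3 libraries too.

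**Figure D3:**
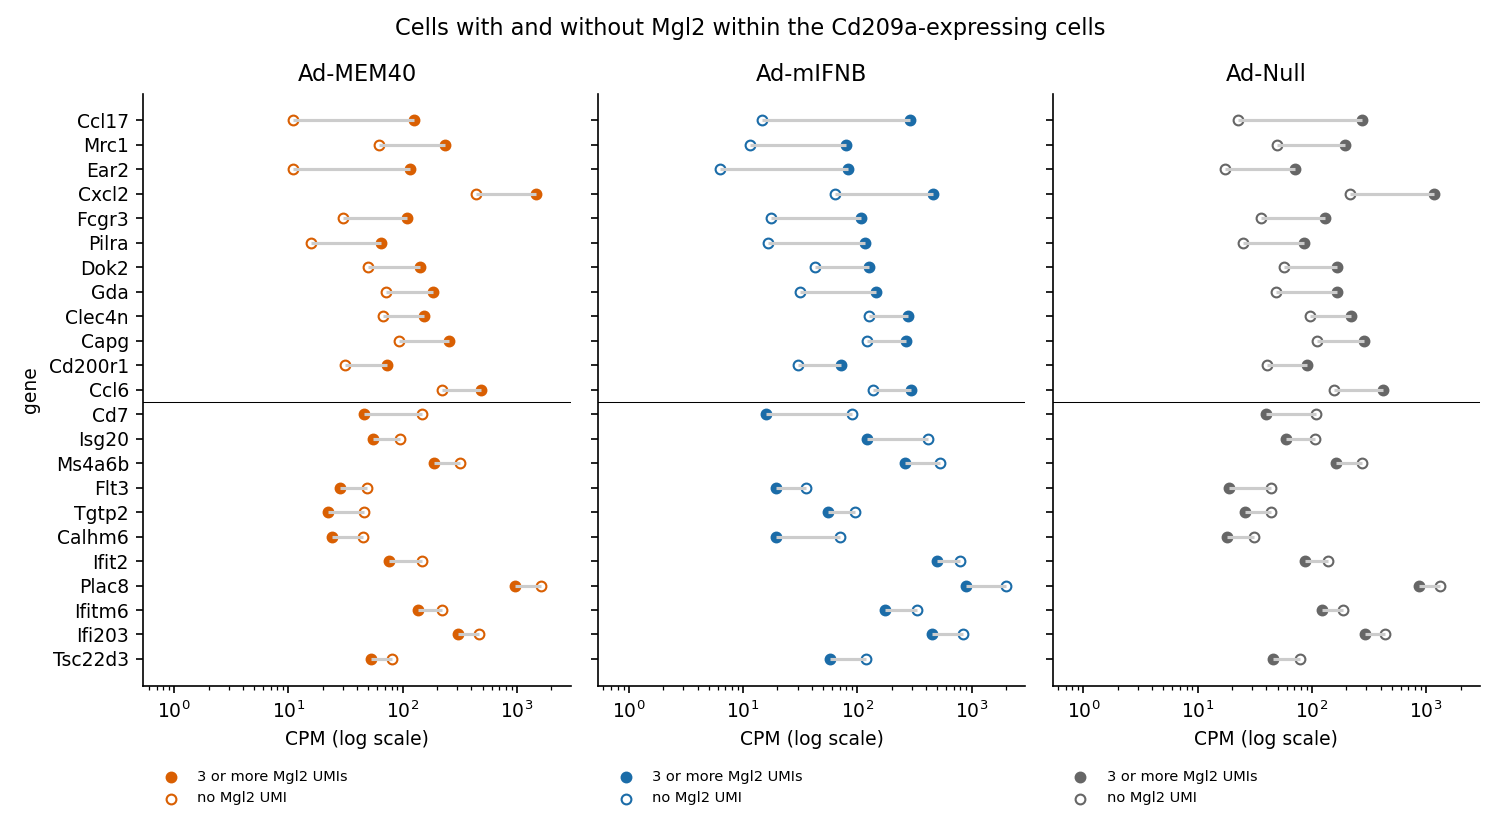
Level in CPM (log axis) of genes in members with at least 3 UMIs of Mgl2 (filled) and with none (open), in a panel each for Ad-MEM40, Ad-mIFNB and Ad-Null. Filled points lie right of open ones for the 12 genes above the line and left of them for the genes below it, which is how the genes were chosen.

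A second split, by the interferon gamma-inducible chemokine Cxcl9, ran across the first. At least 3 UMIs of Cxcl9 were found in 159 members of Ad-MEM40 (13.7%), 15 of Ad-mIFNB (13.9%), 5 of Ad-COMBO (45.5%) and 237 of Ad-Null (17.7%), and in 28.1%, 28.1%, 43.0% and 26.3% of cDC1 barcodes, which also express it and so are no background for this gene. In Ad-MEM40, Ad-mIFNB and Ad-Null, Cxcl9-positive members had more of the guanylate-binding proteins Gbp2 and Gbp5 than members with no Cxcl9 UMI. The genes given for this split were chosen by their ratio in these 3 libraries, so the choice fixes their direction there. The positive side of Ad-mIFNB was 15 cells. Gbp2 was at 562 against 97.6 CPM in Ad-MEM40, 324 against 109 CPM in Ad-mIFNB and 395 against 55.9 CPM in Ad-Null. Cd40, the receptor of CD40 ligand, was at 169 against 50.3 CPM in Ad-MEM40, 136 against 57.1 CPM in Ad-mIFNB and 107 against 39.0 CPM in Ad-Null. Irf8 was at 314 against 82.5 CPM in Ad-MEM40, 162 against 70.3 CPM in Ad-mIFNB and 242 against 77.9 CPM in Ad-Null, and the interferon gamma receptor chain Ifngr1 ran lower, at 142 against 242 CPM in Ad-MEM40, 129.6 against 237 CPM in Ad-mIFNB and 139.5 against 228 CPM in Ad-Null. Of Mgl2-positive members 16.2%, 13.2% and 18.7% were Cxcl9-positive in Ad-MEM40, Ad-mIFNB and Ad-Null, close to the 12.8%, 14.3% and 17.2% of the remaining members. The share of Cxcl9-positive members in these 3 libraries was thus similar on both sides of the Mgl2 split.

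Members of higher Cd209a level also had more Clec10a. Clec10a was at 376, 460.2 and 717 CPM in Ad-MEM40 members with 2 or 3, 4 to 9 and at least 10 UMIs of Cd209a, at 258, 482 and 523 CPM in Ad-mIFNB, and at 359, 428 and 594 CPM in Ad-Null. Mgl2 was at 299.8, 301 and 563 CPM in Ad-MEM40, 541, 534 and 1016 CPM in Ad-mIFNB, and 349.6, 389 and 484 CPM in Ad-Null. The type I interferon list showed no such step, since its summed level was 17016, 16308 and 15471 CPM in Ad-mIFNB and 6092, 6403 and 5851 CPM in Ad-Null. Deeper cells reach more UMIs of Cd209a, and median depth was 8993, 9444 and 10411 UMIs over the 3 steps in Ad-MEM40.

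Ad-mIFNB members differed from Ad-Null members in interferon-stimulated genes, which were higher in nearly the whole list. The comparison asks what interferon beta delivered by the virus did to these cells. Of 37 measured genes of the type I interferon response, 31 passed 1.5-fold on the higher side in Ad-mIFNB against Ad-Null and 0 on the lower side, with a median log2 ratio of 1.20. Over all 11613 genes with at least 20 UMIs in both libraries together, 367 (3.16%) were higher at this fold and 407 (3.5%) lower, and the median was -0.03. Of these calls 47.4% were on the higher side, and 57.4% when each member was weighted equally. Among those under 1.5-fold were Oas1a (0.44), Oas1g (0.18), Irf9 (0.57), Ly6a (0.52) and Ly6i (0.08).

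The highest ratio belonged to the IFIT family, which binds foreign RNA. Ifit1 (chr19:34640871-34650009, plus strand, GRCm38) was at 50.9 CPM (47.0 to 55.0) in Ad-MEM40, 715 CPM (678 to 754) in Ad-mIFNB, 1063 CPM (936 to 1204) in Ad-COMBO and 59.8 CPM (56.7 to 63.1) in Ad-Null. Its log2 ratios to Ad-Null were -0.21 in Ad-MEM40, 3.47 in Ad-mIFNB and 4.04 in Ad-COMBO. Ad-mIFNB and Ad-COMBO thus stood far above Ad-MEM40 and Ad-Null, which lay close together. Rsad2 (viperin, a radical SAM enzyme that blocks virus replication) was at 86.1 CPM (81.0 to 91.5) in Ad-MEM40, 924 CPM (881 to 968) in Ad-mIFNB, 1914 CPM (1741 to 2099) in Ad-COMBO and 97.6 CPM (93.5 to 102) in Ad-Null, the same order of libraries. Ifit3 was at 832 CPM in Ad-mIFNB and 106 CPM in Ad-Null (log2 ratio 2.91), Ifit3b at 229.8 CPM in Ad-mIFNB and 16.7 CPM in Ad-Null (log2 ratio 3.44) and Ifit1bl1 at 144 CPM in Ad-mIFNB and 12.5 CPM in Ad-Null (log2 ratio 3.09). Ifit3 and Ifit3b are near copies, so reads may be split between them, and Ifit1bl1 is a relative of Ifit1. Cmpk2, the nucleotide kinase beside Rsad2 in the genome, was at 117 CPM in Ad-mIFNB and 13.3 CPM in Ad-Null (log2 ratio 2.74), and Ifit2 at 659.8 CPM in Ad-mIFNB and 116 CPM in Ad-Null (log2 ratio 2.45).

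Promoters are shown for 3 genes of the interferon response and for Mgl2, which was higher in Ad-mIFNB as well, because the interferon genes were higher together. Each sequence is the 300 bases from 250 before to 50 after the RefSeq gene start on GRCm38.p6, printed 5′ to 3′ on the strand of the gene. Capitals mark matches to GAAA, any 2 bases and GAAA, or to the reverse complement TTTC, any 2 bases and TTTC, the core of an interferon-stimulated response element. They begin 104 and 85 bases before the start of Ifit1 (chr19:34640639-34640938, plus strand), 120 before that of Rsad2 (chr12:26456403-26456702, minus strand) and 213 before that of Cxcl10 (chr5:92348840-92349139, minus strand), and Mgl2 (chr11:70130107-70130406, plus strand) has none.
Ifit1: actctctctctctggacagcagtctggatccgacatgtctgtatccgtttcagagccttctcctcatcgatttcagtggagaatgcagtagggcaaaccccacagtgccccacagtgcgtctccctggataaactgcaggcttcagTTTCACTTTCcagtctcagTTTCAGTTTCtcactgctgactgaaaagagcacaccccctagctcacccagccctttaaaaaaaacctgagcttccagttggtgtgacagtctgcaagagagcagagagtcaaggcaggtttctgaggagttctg
Rsad2: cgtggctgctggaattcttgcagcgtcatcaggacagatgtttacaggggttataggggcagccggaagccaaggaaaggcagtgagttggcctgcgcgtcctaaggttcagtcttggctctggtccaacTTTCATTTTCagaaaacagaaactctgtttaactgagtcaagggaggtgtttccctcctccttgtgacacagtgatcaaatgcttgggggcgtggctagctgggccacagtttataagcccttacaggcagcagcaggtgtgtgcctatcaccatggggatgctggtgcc
Cxcl10: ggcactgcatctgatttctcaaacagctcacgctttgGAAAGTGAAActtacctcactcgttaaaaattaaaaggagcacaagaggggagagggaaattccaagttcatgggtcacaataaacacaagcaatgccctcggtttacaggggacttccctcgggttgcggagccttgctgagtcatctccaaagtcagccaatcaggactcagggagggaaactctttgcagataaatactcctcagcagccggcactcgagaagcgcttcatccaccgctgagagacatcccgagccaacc
Mgl2: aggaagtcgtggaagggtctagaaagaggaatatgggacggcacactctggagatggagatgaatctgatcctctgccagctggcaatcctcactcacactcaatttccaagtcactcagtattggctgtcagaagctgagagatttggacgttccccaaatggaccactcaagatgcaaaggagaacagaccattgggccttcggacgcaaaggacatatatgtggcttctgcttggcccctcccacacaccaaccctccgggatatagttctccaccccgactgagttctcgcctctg

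A match was found in 6 of the 11 promoters available for the 12 genes highest in Ad-mIFNB (54.5%), namely Ifit1, Ifit3b, Rsad2, Ifit1bl1, Ifit3 and Slfn8. Of 28 promoters found for the 40 genes of the type I interferon list 17 (60.7%) held one, against 943 of all 27025 promoters of the table (3.49%). None of 12 promoters found for the 15 genes that lead the cells and none of 6 found for the 12 genes lowest in Ad-mIFNB held one. The matches to the 2 orientations were searched in the same windows, and a match is a description of letters and not of binding.

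The remaining interferon genes followed in Ad-mIFNB with smaller ratios. Isg15, a ubiquitin-like modifier, was at 1823 CPM (1763 to 1884) in Ad-mIFNB and 565 CPM (555 to 575) in Ad-Null (log2 ratio 1.68). Irf7, the factor that amplifies interferon production, was at 642 CPM in Ad-mIFNB and 205 CPM in Ad-Null (log2 ratio 1.62), and Ifih1 (MDA5, a sensor of double-stranded RNA) at 259 CPM in Ad-mIFNB and 83.3 CPM in Ad-Null (log2 ratio 1.58). Oasl1 was at 174 CPM in Ad-mIFNB and 40.4 CPM in Ad-Null (log2 ratio 1.98), Ifi44 at 187 CPM in Ad-mIFNB and 50.9 CPM in Ad-Null (log2 ratio 1.78) and Usp18, which damps IFNAR signaling, at 217 CPM in Ad-mIFNB and 84.6 CPM in Ad-Null (log2 ratio 1.31). Schlafen 8 (Slfn8) was at 255 CPM in Ad-mIFNB and 60.7 CPM in Ad-Null (log2 ratio 1.99), the DNA-binding Ifi204 at 733 CPM in Ad-mIFNB and 203 CPM in Ad-Null (log2 ratio 1.83) and Phf11c at 57.6 CPM in Ad-mIFNB and 13.6 CPM in Ad-Null (log2 ratio 1.75). The names of the 12 highest genes come from those that reached 50 CPM in a library and 50 UMIs over both, of which 5.4% were past 1.5-fold on the higher side and 1.88% on the lower side. They were Ifit1, Ifit3b, Rsad2, Ifit1bl1, Ifit3, Cmpk2, Ifit2, Slfn8, Oasl1, Ifi204, Ifi44 and Phf11c.

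**Figure D4:**
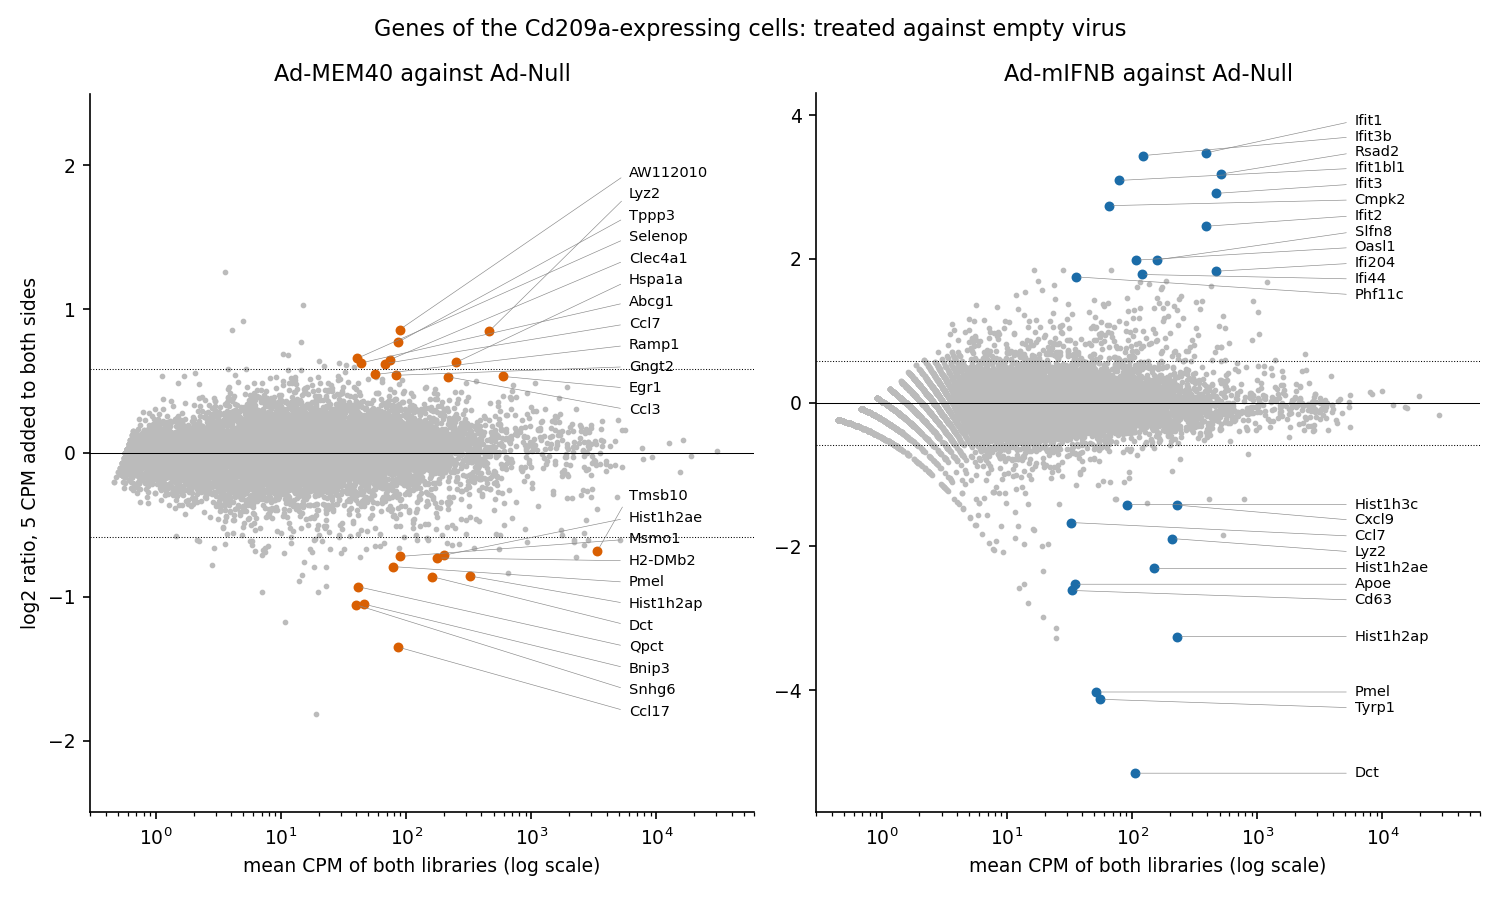
Log2 ratio to Ad-Null within the members (vertical, 5 CPM added, ranges differ between panels) against the mean CPM of both libraries (log axis) for every gene tested in Ad-MEM40 (left) and Ad-mIFNB (right). Dotted lines mark 1.5-fold and colored points the genes named as highest and lowest among those with at least 50 CPM in 1 library and 50 UMIs over both, with Ifit1 at 3.47 in Ad-mIFNB and Ccl17 at -1.35 in Ad-MEM40.

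Cell by cell, the interferon list was higher in many Ad-mIFNB members but not in all. UMIs of the type I interferon list per 10000 UMIs of a cell ran over 4.61 to 474.2 in Ad-MEM40 with a median of 52.4, 20.63 to 500.5 in Ad-mIFNB with a median of 156, 106.2 to 306.4 in Ad-COMBO with a median of 184 and 5.10 to 314.3 in Ad-Null with a median of 51.9. Above the 95th percentile of Ad-Null members (149) lay 4.47% of Ad-MEM40, 52.8% of Ad-mIFNB, 81.8% of Ad-COMBO (9 of 11 cells) and 5.07% of Ad-Null members. The Ad-mIFNB and Ad-Null distributions overlapped, and 13 Ad-mIFNB members exceeded the highest Ad-Null member. With members thinned to 3000 UMIs the shares above the percentile were 5.00%, 50.9%, 81.8% and 4.97% in Ad-MEM40, Ad-mIFNB, Ad-COMBO and Ad-Null.

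**Figure D5:**
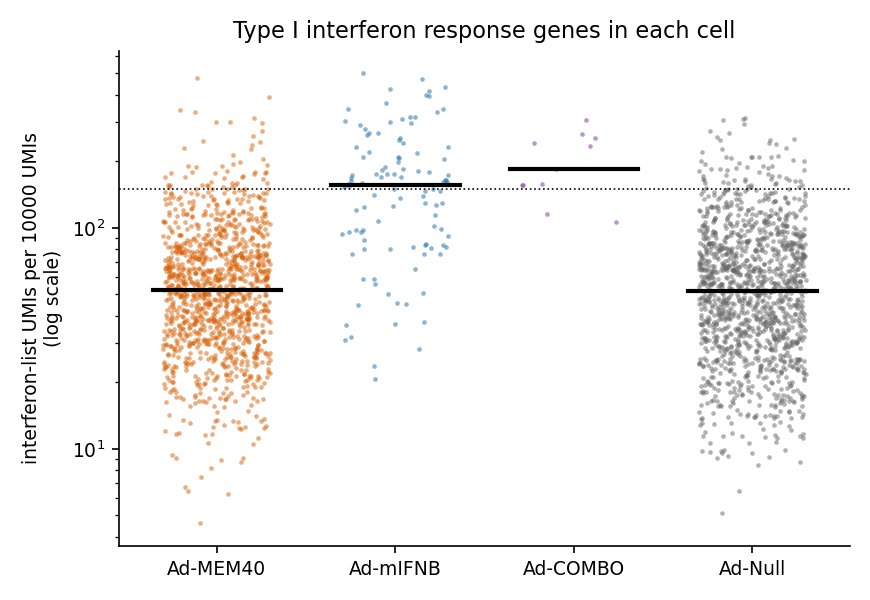
UMIs of the type I interferon list per 10000 UMIs (log axis) in every member of each library (points), with thick bars at the medians and a dotted line at the 95th percentile of Ad-Null members (149). Medians are 52.4 in Ad-MEM40, 156 in Ad-mIFNB, 184 in Ad-COMBO and 51.9 in Ad-Null.

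A few antigen presentation genes of class I were higher in Ad-mIFNB. Of 22 MHC class I genes 4 were at least 1.5-fold higher and 0 lower (median 0.30). They were the nonclassical H2-T22 at 204 CPM in Ad-mIFNB and 109 CPM in Ad-Null (log2 ratio 0.88), H2-Q7 at 366 CPM in Ad-mIFNB and 212 CPM in Ad-Null (log2 ratio 0.77), H2-Q6 (0.75) and H2-T23 (0.71), genes whose copies share sequence. B2m, the light chain of all class I molecules, was at 2839 CPM in Ad-mIFNB and 2071 CPM in Ad-Null (log2 ratio 0.45), under 1.5-fold. For MHC class II 0 of 15 were higher and only Lgmn, a lysosomal protease, was lower (-0.60), and the median was 0.15. H2-Aa, the alpha chain of I-A, was at 7788 CPM in Ad-MEM40, 8422 in Ad-mIFNB, 9911 in Ad-COMBO and 7608 in Ad-Null.

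Genes associated with interferon gamma were higher in part, but Cxcl9 ran against them. Of 18 measured, 8 were higher and 1 lower (median 0.56). The immunity-related GTPase Irgm1 was at 262 CPM in Ad-mIFNB and 82.4 CPM in Ad-Null (log2 ratio 1.61), the JAK inhibitor Socs1 at 86.6 CPM in Ad-mIFNB and 30.2 CPM in Ad-Null (log2 ratio 1.38) and Tgtp2 at 76.8 CPM in Ad-mIFNB and 36.8 CPM in Ad-Null (log2 ratio 0.97). Cxcl9, a CXCR3 ligand that attracts T cells, was at 121 CPM (106 to 137) in Ad-mIFNB and 333 CPM (325 to 340.5) in Ad-Null (log2 ratio -1.42). In Ad-COMBO members Cxcl9 was at 638 CPM and in Ad-MEM40 at 334 CPM, so Ad-mIFNB was the lowest of the 4 libraries. The 5% of members with most Cxcl9 held 74.7% of its UMIs in Ad-MEM40, 57.5% in Ad-mIFNB and 70.2% in Ad-Null. In Ad-COMBO 1 cell held 100 of the 150 UMIs of Cxcl9, so the level there rests mostly on that cell.

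Chemokines lay on both sides in Ad-mIFNB, with 4 of 18 chemokines higher and 6 lower (median -0.27). Cxcl10, another CXCR3 ligand, was at 1357 CPM (1306 to 1410.5) in Ad-mIFNB and 508 CPM (499 to 518) in Ad-Null (log2 ratio 1.41), and Ccl4, a macrophage inflammatory protein, at 1438 CPM in Ad-mIFNB and 597 CPM in Ad-Null (log2 ratio 1.26). Ccl12 (0.71) and Ccl24 (1.10) were higher from low levels, and all 13 UMIs of Ccl24 in Ad-mIFNB lay in 1 cell. The neutrophil chemokine Cxcl2 was at 230.3 CPM in Ad-mIFNB and 594 CPM in Ad-Null (log2 ratio -1.35), and the monocyte chemokine Ccl7 at a ratio of -1.67. Cxcl1, Ccl8, Ccl22 and Cxcl9 were the other 4 on the lower side. Ccl17 was level between the libraries, at 133 CPM in Ad-mIFNB and 126 CPM in Ad-Null (log2 ratio 0.07).

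Of 18 cytokines 6 were higher in Ad-mIFNB and 1 lower (median 0.04). Tnfsf10 (TRAIL, a death ligand) was at 29.6 CPM in Ad-mIFNB and 5.69 CPM in Ad-Null (log2 ratio 1.69), Ltb at 77.8 CPM in Ad-mIFNB and 40.9 CPM in Ad-Null (log2 ratio 0.85), Il18 at 25.4 CPM in Ad-mIFNB and 13.3 CPM in Ad-Null (log2 ratio 0.74), Il15 at a ratio of 0.98, Il27 at 0.81 and Il6 at 0.77. The lower one was Il1b, the pyrogenic interleukin 1 beta, at 637 CPM in Ad-mIFNB and 1044 CPM in Ad-Null (log2 ratio -0.71). Tnfsf8, the ligand of CD30, was higher at 37.3 CPM in Ad-mIFNB and 10.6 CPM in Ad-Null (log2 ratio 1.44), outside the lists.

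Among sensors, 7 of 19 were higher and 0 lower (median 0.22), led by Ifih1, Cgas (1.06), Tlr3 (1.06), Ddx58 (1.01), Zbp1 (0.87) and Tlr7 (0.70). Fcgr1, the high-affinity IgG receptor known as CD64, was at 266 CPM (243 to 289.6) in Ad-mIFNB and 133 CPM (129 to 138) in Ad-Null (log2 ratio 0.97), and the checkpoint ligand Cd274 (PD-L1) at 175 CPM (157 to 195) in Ad-mIFNB and 97.5 CPM (93.5 to 102) in Ad-Null (log2 ratio 0.81). The receptor Gpr171 was at 274 CPM in Ad-mIFNB and 164 CPM in Ad-Null (log2 ratio 0.72). The heat shock genes Hspa1a and Hspa1b, near copies of each other, were at 529.6 CPM in Ad-mIFNB and 196 CPM in Ad-Null (log2 ratio 1.41) and 272 CPM in Ad-mIFNB and 115 CPM in Ad-Null (log2 ratio 1.20), while the other 20 stress and immediate early genes stayed under 1.5-fold (median of all 22, 0.24).

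Mgl2 was higher in Ad-mIFNB, and most other C-type lectins lay within 1.5-fold. Mgl2 was at 373 CPM (363 to 384) in Ad-MEM40, 758 CPM (720.0 to 798) in Ad-mIFNB, 821 CPM (709 to 945) in Ad-COMBO and 425 CPM (416 to 433) in Ad-Null. Among members with at least 3 UMIs of it, its level was 1164 CPM in Ad-MEM40, 1762 in Ad-mIFNB, 1170.5 in Ad-COMBO and 1043 in Ad-Null, so Ad-mIFNB lay above the others within the positive members too. A UMI of Mgl2 was found in 41.7% of Ad-mIFNB and 46.9% of Ad-Null members. The 5% of members with most Mgl2 held 44.0% of its UMIs in Ad-mIFNB and 47.6% in Ad-Null, so few cells weigh much in both levels. Mrc1 was at 39.9 CPM in Ad-mIFNB and 108 CPM in Ad-Null (log2 ratio -1.34) and Cd209d at 6.22 CPM in Ad-mIFNB and 21.7 CPM in Ad-Null (log2 ratio -1.25). Of 19 measured C-type lectins 2 were higher and 4 lower (median -0.21), the other higher one being Klrk1, the NKG2D receptor (0.64). Cd209a and Clec10a were within 1.5-fold of Ad-Null.

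Among genes of uptake, lipid handling and division, more were past 1.5-fold on the lower side than on the higher side in Ad-mIFNB. Of 20 phagocytosis and lysosome genes 8 were lower and 1 higher (median -0.49). Cd63, a tetraspanin of lysosomes and melanosomes, was at 5.71 CPM in Ad-mIFNB and 60.5 CPM in Ad-Null (log2 ratio -2.61), the protease Ctsd at 52.9 CPM in Ad-mIFNB and 120.0 CPM in Ad-Null (log2 ratio -1.11) and Lyz2 at 85.1 CPM (72.5 to 99.1) in Ad-mIFNB and 329 CPM (321 to 336) in Ad-Null (log2 ratio -1.89), while the receptor Axl was higher (0.74). Of 17 eicosanoid and lipid genes 8 were lower and 2 higher (median -0.55). Apoe was at 6.74 CPM in Ad-mIFNB and 62.6 CPM in Ad-Null (log2 ratio -2.53), the lipase Lpl at 1.04 CPM in Ad-mIFNB and 48.0 CPM in Ad-Null (log2 ratio -3.13) and the prostaglandin synthase Ptgs2 at 40.5 CPM in Ad-mIFNB and 92.3 CPM in Ad-Null (log2 ratio -1.10), against Apod (1.24) and Lipg (1.13) on the higher side. The Lpl level in Ad-mIFNB lay under the 1.56 CPM that 3 UMIs would give there. Of 20 cell cycle genes 6 were lower and 0 higher (median -0.42), where 3.5% of all genes were lower, among them Top2a at 38.9 CPM in Ad-mIFNB and 106 CPM in Ad-Null (log2 ratio -1.34) and Cdk1 at 3.63 CPM in Ad-mIFNB and 15.6 CPM in Ad-Null (log2 ratio -1.26).

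Several of these lower genes belong to other cell types, whose markers were lower in Ad-mIFNB as well. Macrophage list genes summed to 311 CPM in Ad-mIFNB members and 584 CPM in Ad-Null members, with 0 of 12 measured higher and 5 lower. Mertk and Lyve1 were at 0 UMIs in Ad-mIFNB, and no gene of the list was at 0 in Ad-Null. Over the same comparison the list median was -0.29 in cDC1, -0.90 in Ccr7, -0.15 in C1q and -1.10 in Ly6c2 barcodes, against -0.52 in the members. Melanoma list genes were at 13.5 CPM in Ad-mIFNB and 541 CPM in Ad-Null. Of the 12165 melanoma UMIs of Ad-Null members 94.2% lay in 10 cells and 3684 in 1 cell, and in Ad-mIFNB 22 cells shared 26 such UMIs. Dct (-5.15), Tyrp1 (-4.13) and Pmel (-4.02), enzymes and a matrix protein of melanin synthesis, were the 3 lowest of the genes with at least 50 CPM in 1 library. The part of tumor and macrophage RNA in the lower levels of Cd63, Apoe, Lpl and Lyz2 was not tested. With members that held a melanoma UMI left out Cd63 was at -1.11, Apoe at -1.31 and Lyz2 at -1.66.

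Histone genes were also among the 12 lowest. Hist1h2ap was at 39.4 CPM in Ad-mIFNB and 419 CPM in Ad-Null (log2 ratio -3.25), Hist1h2ae at 46.7 CPM in Ad-mIFNB and 250.3 CPM in Ad-Null (log2 ratio -2.30) and Hist1h3c at 47.2 CPM in Ad-mIFNB and 134 CPM in Ad-Null (log2 ratio -1.42), replication-dependent histones whose families hold near copies. In Ad-mIFNB 1 cell held 66 of the 76 UMIs of Hist1h2ap, 79 of the 90 of Hist1h2ae and 79 of the 91 of Hist1h3c, so these levels rest mostly on that cell. A UMI of Hist1h2ap was found in 5.56% of Ad-mIFNB and 37.8% of Ad-Null members.

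Set beside the other classes, interferon genes were higher in every class and some other genes lay on different sides. In the same comparison 36 of 37 type I interferon genes were higher in cDC1 barcodes (median 1.87), 35 in Ccr7 (1.44), 34 in C1q (1.27) and 36 in Ly6c2 barcodes (1.36), all above the median of 1.20 in the members. Mgl2 was at a log2 ratio of 0.83 in the members, -0.12 in cDC1, -1.25 in Ccr7, 0.12 in C1q and -0.61 in Ly6c2 barcodes. Cxcl10 was higher in each of them, at 1.40, 1.17, 1.17 and 0.48. Cxcl9 was at 0.20 in cDC1 barcodes but at -1.78, -2.55 and -2.54 in Ccr7, C1q and Ly6c2 barcodes. The classes held 228 and 1089 (cDC1), 223 and 532 (Ccr7), 211 and 1527 (C1q), and 237 and 46 (Ly6c2) barcodes of Ad-mIFNB and Ad-Null, and differences between classes were not tested.

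Ad-MEM40 members gave few genes past 1.5-fold against Ad-Null members. The comparison asks what the CD40 ligand virus did to these cells. Of 12123 genes with at least 20 UMIs 20 (0.165%) passed 1.5-fold on the higher side in Ad-MEM40 and 70 (0.577%) on the lower side, with a median log2 ratio of 0.01. Of these calls 22.2% were on the higher side, and 32.8% when each member was weighted equally. None of 24 CD40 and NF-kB targets passed 1.5-fold in either direction (median 0.13), nor any of 20 costimulation and maturation genes (0.12), 37 type I interferon genes (-0.00), 19 interferon gamma genes (0.23) or 22 MHC class I genes (0.05). The NF-kB inhibitor Nfkbia was at 1890.5 CPM in Ad-MEM40 and 1449.5 CPM in Ad-Null (log2 ratio 0.38), Tnfaip3 at 314 CPM in Ad-MEM40 and 232 CPM in Ad-Null (log2 ratio 0.43) and the CD40 receptor gene Cd40 at 71.0 CPM in Ad-MEM40 and 55.2 CPM in Ad-Null (log2 ratio 0.33).

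The mouse genes for CD40 ligand and interferon beta had almost no UMIs in the members. RNA from the viruses need not map to these genes, so their counts do not measure it. Cd40lg had 0 UMIs in all 4 libraries, where 3 UMIs would be 0.242 CPM in Ad-MEM40, 1.56 in Ad-mIFNB, 12.8 in Ad-COMBO and 0.133 in Ad-Null. Ifnb1 had 1 UMI, in Ad-Null, and 0 in the others. The interferon receptor genes were present in all libraries, Ifnar1 at 54.3 CPM in Ad-MEM40, 49.3 in Ad-mIFNB, 29.8 in Ad-COMBO and 56.0 in Ad-Null and Ifnar2 at 156 CPM in Ad-MEM40, 135 in Ad-mIFNB, 119 in Ad-COMBO and 128 in Ad-Null.

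The highest genes in Ad-MEM40, again among those that reached 50 CPM in a library and 50 UMIs over both, had small ratios. In that set 0.281% passed 1.5-fold on the higher side and 1.19% on the lower side. AW112010, annotated as a long noncoding RNA and known as interferon-inducible in myeloid cells, was at 116 CPM (110.2 to 122) in Ad-MEM40 and 61.8 CPM (58.6 to 65.2) in Ad-Null (log2 ratio 0.86). Lyz2 was at 596 CPM (582 to 609.6) in Ad-MEM40 and 329 CPM (321 to 336) in Ad-Null (log2 ratio 0.85). Tppp3, a tubulin-binding protein, was at 110.3 CPM (105 to 116) in Ad-MEM40 and 62.6 CPM (59.3 to 65.9) in Ad-Null (log2 ratio 0.77). AW112010 and Lyz2 were lower in the members than in other barcodes in all 4 libraries, whereas Tppp3 was higher. The selenium carrier Selenop was at 51.1 CPM in Ad-MEM40 and 30.6 CPM in Ad-Null (log2 ratio 0.66), the lectin Clec4a1 at 91.0 CPM in Ad-MEM40 and 56.3 CPM in Ad-Null (log2 ratio 0.65), the cholesterol transporter Abcg1 at 54.4 CPM in Ad-MEM40 and 33.5 CPM in Ad-Null (log2 ratio 0.63), Hspa1a at 306 CPM in Ad-MEM40 and 196 CPM in Ad-Null (log2 ratio 0.63) and Ccl7 at 82.8 CPM in Ad-MEM40 and 52.1 CPM in Ad-Null (log2 ratio 0.62). Ramp1 (0.55), Gngt2 (0.54), Egr1 (0.53) and Ccl3 (0.53) completed the 12 highest and lay under 1.5-fold.

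Lyz2, Selenop and Ccl7 are known from macrophages, and macrophage list genes were slightly higher in Ad-MEM40 members. They summed to 651 CPM in Ad-MEM40 and 584 CPM in Ad-Null, with 1 of 12 higher (Ms4a7, 0.69), 0 lower and a median of 0.34, and no gene of the list was at 0 UMIs in either. With members limited to those without a UMI of C1q genes or Retnla, AW112010 was at 0.93, Tppp3 at 0.68 and Selenop at 0.66. In that subset Lyz2 was at 0.41, Clec4a1 at 0.34 and Abcg1 at 0.29, all under 1.5-fold, and Ccl7 was lower, at -0.33. Against Ad-Null, Lyz2 was higher in Ad-MEM40 also in cDC1 barcodes (0.91), in Ccr7 barcodes (1.10) and in C1q barcodes (0.40), and the macrophage list median was 0.52, 0.49 and 0.16 there. The part of macrophage RNA in these ratios was not tested.

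On the lower side in Ad-MEM40, Ccl17 was the lowest of the genes with at least 50 CPM in 1 library. It was at 46.4 CPM (42.7 to 50.3) in Ad-MEM40, 133 CPM (117 to 150.1) in Ad-mIFNB, 8.51 CPM (1.03 to 30.7) in Ad-COMBO and 126 CPM (121 to 131) in Ad-Null, with a log2 ratio of -1.35 in Ad-MEM40. Ad-MEM40 and Ad-COMBO were thus low and Ad-mIFNB and Ad-Null close to each other, but the Ad-COMBO value rests on 2 UMIs. Few cells carried the gene, since the 5% of members with most Ccl17 held 95.1% of its UMIs in Ad-MEM40, 74.6% in Ad-mIFNB and 88.5% in Ad-Null. Mgl2-positive members had 125 CPM of Ccl17 in Ad-MEM40 and 276 CPM in Ad-Null, and Mgl2-negative members 11.0 and 22.5 CPM, so both subsets held less of it in Ad-MEM40. In Ccr7 barcodes the ratio was -1.10.

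A few genes of hypoxia and glycolysis were lower in Ad-MEM40 members. Of 17 measured 4 were lower at 1.5-fold and 0 higher, where 0.577% of all genes were lower, with a median of -0.38. Bnip3, a mitophagy receptor, was at 28.4 CPM (25.5 to 31.5) in Ad-MEM40 and 64.2 CPM (61.0 to 67.6) in Ad-Null (log2 ratio -1.05), Vegfa, the vascular growth factor, at 14.2 CPM in Ad-MEM40 and 31.5 CPM in Ad-Null (log2 ratio -0.93), the glycolytic enolase Eno1 at 271 CPM in Ad-MEM40 and 429.8 CPM in Ad-Null (log2 ratio -0.66) and the oxidoreductase Ero1l at 47.3 CPM in Ad-MEM40 and 77.1 CPM in Ad-Null (log2 ratio -0.65). Pgk1 (-0.46), Aldoa (-0.40) and Ldha (-0.35) lay on the same side under 1.5-fold. The list median in the same comparison was -0.06 in cDC1, 0.01 in Ccr7, 0.01 in C1q and 0.17 in Ly6c2 barcodes. Bnip3 was at -0.06, 0.06, -0.15 and 0.11 in those classes. Within members without a UMI of C1q genes or Retnla, Bnip3 was at -0.37, under 1.5-fold.

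The remaining low genes of Ad-MEM40 were mixed in function. The snoRNA host gene Snhg6 was at 23.9 CPM in Ad-MEM40 and 55.0 CPM in Ad-Null (log2 ratio -1.05), Qpct (glutaminyl cyclase) at 26.7 CPM in Ad-MEM40 and 55.4 CPM in Ad-Null (log2 ratio -0.93) and H2-DMb2 at 133 CPM in Ad-MEM40 and 223 CPM in Ad-Null (log2 ratio -0.73), the only MHC class II gene of 15 past 1.5-fold. Msmo1, of sterol synthesis, was at 66.6 CPM in Ad-MEM40 and 113 CPM in Ad-Null (log2 ratio -0.72) and the actin-binding Tmsb10 at 2584 CPM in Ad-MEM40 and 4151 CPM in Ad-Null (log2 ratio -0.68). Hist1h2ap was at 229 CPM in Ad-MEM40 and 419 CPM in Ad-Null (log2 ratio -0.86) and Hist1h2ae at -0.71. Snhg6 and Tmsb10 were lower in the other classes too, at -0.53 and -0.61 in Ccr7 barcodes. Dct (-0.86) and Pmel (-0.79) are tumor genes, whose list summed to 315 CPM in Ad-MEM40 and 541 CPM in Ad-Null. Their order hung on few cells, as 10 members held 82.9% of the melanoma UMIs of Ad-MEM40 and 94.2% of those of Ad-Null.

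The other gene groups in Ad-MEM40 held few genes past 1.5-fold. Of 18 chemokines 2 were higher (Ccl7 and Ccl8) and 1 lower (Ccl17), with a median of 0.28. Ccl8 was at 21.7 CPM in Ad-MEM40 and 8.05 CPM in Ad-Null (log2 ratio 1.03). Of 19 C-type lectins 2 were higher (Clec4a1 and Cd209d, 0.62) and Clec4n was lower (-0.61). Immediate early and stress genes had 1 of 22 higher and a median of 0.31, and the median was 0.32 in cDC1, 0.22 in Ccr7 and 0.23 in C1q barcodes. None of 20 cell cycle genes, 18 cytokines, 18 inhibitory molecules or 24 cytokine receptors passed 1.5-fold, with medians of 0.23, 0.05, 0.01 and 0.07.

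Ad-COMBO held 11 members, so its values are given without weight on counts of genes. Of 11517 genes 1683 (14.6%) were past 1.5-fold on the higher side and 2823 (24.5%) on the lower side, and among genes that reached 50 CPM in a library 19% and 15.9%. Of 37 type I interferon genes 33 were higher and 1 lower, with a median of 1.46. Rsad2 was at 1914 CPM (1741 to 2099) in Ad-COMBO and 97.6 CPM (93.5 to 102) in Ad-Null (log2 ratio 4.23), and Ifit1bl1 and Ifit1 were at 4.16 and 4.04. Tnfsf8 was at 149 CPM (104 to 207) in Ad-COMBO and 10.6 CPM (9.32 to 12.1) in Ad-Null, and the complement factor gene Cfb at 102 CPM (65.4 to 152) in Ad-COMBO and 6.23 CPM (5.24 to 7.35) in Ad-Null. Tnfsf8 was 5.00 CPM in Ad-MEM40 and 37.3 CPM in Ad-mIFNB. Hist1h2ap, Hist1h2ae, Hist1h1b, Top2a, Dct, Apoe and Cd63 had 0 UMIs in Ad-COMBO, where 3 UMIs correspond to 12.8 CPM, against 419, 250.3, 193, 106, 210.0, 62.6 and 60.5 CPM in Ad-Null. In Ad-Null the 5% of members with most of each gene held 93.4%, 94.3%, 91.7%, 79.8%, 97.5%, 64.7% and 89.4% of its UMIs. A UMI of these genes was found in 37.8%, 25.3%, 25.3%, 24.2%, 13.9%, 36.3% and 15.7% of Ad-Null members. The Ad-Null levels thus rest mostly on a small part of the members, and whether 0 UMIs in 11 cells is a lower level was not tested. The 3 comparisons share the Ad-Null members, so their ratios are not independent of each other.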

How the data were processed

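Single-cell 3' RNA of CD11c+ MHC-II+ cells was measured in 4 libraries, 1 per treatment. The UMI counts per gene and barcode were deposited by the authors as filtered matrices and were used as deposited. The submitters' processing notes name Cell Ranger 3.0, Seurat 4.0 and mm10, and per the file headers the matrices were written by Cell Ranger 6.0.0. Gene positions came from GENCODE M21 (GRCm38), which held 32158 of 32285 gene identifiers, and promoters from RefSeq. UMIs were summed over the members of a library, scaled to CPM and compared as log2 ratios with 5 CPM added, among genes with at least 20 UMIs over both libraries. With 1 library a group no test was run. Levels carry exact Poisson and shares exact binomial (Clopper-Pearson) 95% intervals, which cover counting error only. Library sums of member UMIs were 12399797 in Ad-MEM40, 1927912 in Ad-mIFNB, 235094 in Ad-COMBO and 22484440 in Ad-Null.

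Named genes were the 12 highest and 12 lowest ratios of Ad-MEM40 and Ad-mIFNB, and the 8 of each for Ad-COMBO, among genes with at least 50 CPM in 1 library and 50 UMIs over both. The 15 genes with the highest smallest ratio to other barcodes over the 4 libraries and members of 35 gene lists (521 of 528 genes matched, the others not used here) were named as well. Genes of the rule, mitochondrial, ribosomal protein, haemoglobin, antigen receptor, sex-linked and unnamed gene models were left out, and some genes that the rule names are not reported here. The members, rule and lists were chosen with earlier results of these data known, and the Mgl2 and Cxcl9 splits after their values were seen. The rule has no doublet step. Scrublet was run as an alternative, and as its automatic threshold marked 0 barcodes in Ad-MEM40 the expected share of 14.5% was marked there. The automatic threshold was kept in the other libraries, and in Ad-Null it marked 16.7% where 9.05% was expected. Alternatives changed the added CPM, the filters, the scaling, the weighting, the depth and the rule, and leaving out members with a melanoma UMI was chosen after seeing the data. Python 3.11.15, numpy 2.4.6, pandas 2.3.3, scipy 1.17.1, scanpy 1.11.5 and matplotlib 3.10.9 were used.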

Additional observations from a re-analysis of the deposited data

Results flagged for a closer look

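Hpgds, which encodes hematopoietic prostaglandin D synthase, was lower in Ad-mIFNB than in Ad-Null in the Cd209a-expressing cells, at a log2 ratio of -0.65, and higher in cDC1 barcodes, at 1.07. The opposite directions drew attention, and the difference between the classes was not tested, since each treatment had 1 library.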

How the results depend on the processing

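No paired analysis was possible because each treatment had 1 library. The counts of genes past 1.5-fold depended on the settings. With 1 CPM added in place of 5, 132 genes were higher and 282 lower in Ad-MEM40, 800 higher and 1373 lower in Ad-mIFNB, and 4394 lower in Ad-COMBO. With members thinned to 3000 UMIs, 77 were higher in Ad-MEM40, 860 higher and 1198 lower in Ad-mIFNB, and 4267 lower in Ad-COMBO. With equal weight per member 39 were lower in Ad-MEM40. With C1q genes and Retnla at 0 UMIs 144 were higher in Ad-MEM40, and 49 with members that held a melanoma UMI left out. Changes of sign were counted only for list medians and named genes at least 1.5-fold from Ad-Null in the main setting. Smaller ratios that changed sign are not listed. Those counted in Ad-MEM40 were the melanoma list median (0.053) and Pmel (0.053) with equal weight. With C1q genes and Retnla at 0 they were the melanoma median (2.13), Dct (2.27), Pmel (2.90) and Ccl7 (-0.33). In Ad-COMBO the chemokine receptor median was 0.065 without the Ly6c2 limit. The cause was not tested. The share of members was 10.1%, 8.45% and 19.1% in Ad-MEM40, Ad-mIFNB and Ad-Null with at least 1 UMI of Cd209a, and 5.07%, 4.42% and 11.7% with at least 4. Thinned barcodes gave 4.59%, 2.93% and 9.47%. In Ad-MEM40 and Ad-Null it was 2.38% and 4.79% with C1q genes and Retnla at 0, 8.35% and 17.3% without Scrublet doublets, and 8.78% and 18.0% with at least 1000 genes and at most 5% mitochondrial UMIs. List medians stayed within the median counting half-width of their genes in 316 of 336 repeats for Ad-MEM40, 305 of 327 for Ad-mIFNB and 324 of 327 for Ad-COMBO. That half-width was wide in Ad-COMBO, at 2.41 log2 units for the macrophage list against 0.173 in Ad-MEM40. The Ad-COMBO count therefore does not show stability. Named genes stayed within their half-width in 204 of 264 repeats for Ad-MEM40, 201 of 264 for Ad-mIFNB and 165 of 176 for Ad-COMBO. The 11 cells limit Ad-COMBO most, since 3 of their summed UMIs are 12.8 CPM.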
